A study of Mus musculus with 24 samples.

Results

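The genes described here build and remodel the extracellular matrix, the protein mesh to which cells attach. They are the collagens, the laminins, the integrins and the Adamts and Adamtsl proteins, and the measurement is 5-hydroxymethylcytosine (5hmC), the oxidised form of 5-methylcytosine that Tet enzymes make in DNA. All autosomal protein-coding mouse genes named *Col*, *Lama*, *Lamb*, *Lamc*, *Itga*, *Itgb*, *Adamts* or *Adamtsl* followed by a number were taken, which gave 101 of 20807 genes: 43 collagen, 11 laminin, 23 integrin and 24 Adamts genes. Of the 20726 differentially hydroxymethylated regions (DhMRs) of the series, 136 lay inside these genes or carried their Ensembl gene ID. Each DhMR is a window of 198 bp, and each stands in 1 of the lists, that of higher 5hmC in Wt25 cells (12096 windows) or that of higher 5hmC in AA10 cells (8630 windows).

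Both cell lines were mouse embryonic stem cells (ESCs) of mixed C57BL/6J-129V background in which *Tet1*, *Tet2* and *Tet3* had been knocked out, and both carried a Flag-tagged human Tet3 delivered by lentivirus. In Wt25 cells this Tet3 was wild type, and in AA10 cells a pair of its serines that are targets of the kinase Cdk5 was changed to alanine. The cells grew in 2i medium with LIF, which keeps ESCs undifferentiated. 5hmC-DIP, the sequencing of DNA fragments pulled down with an antibody to 5hmC, was done on 3 libraries of each line. Each line was 1 puromycin-selected clone, so the form of Tet3 and the clone cannot be told apart. The lists pool the libraries and hold positions without a value per library. No window could therefore be given a fold change, an error between libraries or a test here, and the results are counts and shares with 95% Wilson intervals. Those intervals cover counting error only and are too narrow where neighbouring windows report on the same stretch of DNA. RNA levels, and with them the markers of ESCs, were not used here.

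Collagens are triple-helical proteins that give tissues their tensile strength as fibrils or, as collagen IV, form the network of basement membranes. Laminins are cross-shaped trimers of an alpha, a beta and a gamma chain that form the other basement membrane network and are among the earliest matrix proteins of the mouse embryo. Integrins are cell-surface pairs of an alpha and a beta subunit that bind collagens, laminins or fibronectin outside the cell and link to the actin cytoskeleton inside it. Adamts proteins are secreted metalloproteases that trim procollagens and cut proteoglycans, and the Adamtsl proteins share their ancillary domains but lack the protease. Tet enzymes act mostly on methylated CpGs, and 5hmC is known to be common in the bodies of genes in ESCs.

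The sequences of the windows with most CpGs show what the measured DNA looked like. For each family and list the window inside a gene with the highest CpG count is printed, with GRCm38 coordinates, as the forward strand of the RefSeq genome in lower case with each CpG in capitals. The window of *Lamb2* covers the whole of coding exon 16 of 33, that of *Adamtsl5* coding exon 5 of 13 and that of *Adamts9* coding exon 38 of 40. The window of *Lamc1* covers 108 bases of coding exon 25 of 28, and the windows of the other genes have their midpoints in introns.
Col2a1 Wt25 window, chr15:98004003-98004200: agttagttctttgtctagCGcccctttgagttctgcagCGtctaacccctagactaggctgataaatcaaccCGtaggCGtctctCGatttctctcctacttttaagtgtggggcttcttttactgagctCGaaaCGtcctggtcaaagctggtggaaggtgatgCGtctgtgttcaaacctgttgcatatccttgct
Col4a3bp AA10 window, chr13:96608603-96608800: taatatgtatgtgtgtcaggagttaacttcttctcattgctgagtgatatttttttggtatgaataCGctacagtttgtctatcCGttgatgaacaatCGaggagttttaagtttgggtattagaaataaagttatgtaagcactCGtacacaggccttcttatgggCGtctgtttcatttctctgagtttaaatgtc
Lamb2 Wt25 window, chr9:108484203-108484400: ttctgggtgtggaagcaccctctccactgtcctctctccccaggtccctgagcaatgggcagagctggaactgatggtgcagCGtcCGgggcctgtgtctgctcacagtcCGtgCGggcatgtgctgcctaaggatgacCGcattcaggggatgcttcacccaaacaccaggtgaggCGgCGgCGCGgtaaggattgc
Lamc1 AA10 window, chr1:153227603-153227800: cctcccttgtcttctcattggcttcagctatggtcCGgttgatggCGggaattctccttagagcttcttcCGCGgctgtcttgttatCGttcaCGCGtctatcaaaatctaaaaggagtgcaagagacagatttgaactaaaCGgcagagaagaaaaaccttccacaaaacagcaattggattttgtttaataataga
Itgb5 Wt25 window, chr16:33835003-33835200: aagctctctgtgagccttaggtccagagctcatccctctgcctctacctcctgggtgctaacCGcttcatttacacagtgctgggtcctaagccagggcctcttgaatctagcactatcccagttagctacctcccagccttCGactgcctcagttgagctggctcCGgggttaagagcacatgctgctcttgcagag
Itgb4 AA10 window, chr11:115989603-115989800: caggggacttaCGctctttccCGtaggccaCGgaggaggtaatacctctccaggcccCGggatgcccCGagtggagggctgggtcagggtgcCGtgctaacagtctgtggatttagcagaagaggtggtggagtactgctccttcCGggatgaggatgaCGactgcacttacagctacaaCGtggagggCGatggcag
Adamtsl5 Wt25 window, chr10:80345003-80345200: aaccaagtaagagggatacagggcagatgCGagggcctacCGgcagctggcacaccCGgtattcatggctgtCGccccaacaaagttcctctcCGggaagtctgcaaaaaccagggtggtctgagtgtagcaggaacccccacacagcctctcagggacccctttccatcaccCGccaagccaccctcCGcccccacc
Adamts9 AA10 window, chr6:92786803-92787000: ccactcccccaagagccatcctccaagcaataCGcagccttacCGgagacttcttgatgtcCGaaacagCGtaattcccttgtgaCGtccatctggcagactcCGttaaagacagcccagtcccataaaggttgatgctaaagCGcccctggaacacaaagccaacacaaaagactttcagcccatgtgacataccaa
The *Itgb4* window holds 10 CpGs, the highest count among the 136 windows, and that of *Itgb5* holds 3, the highest count of a Wt25 window inside an integrin gene. *Col4a3bp* meets the naming rule but encodes a ceramide transfer protein rather than a collagen, so the window of *Col4a2* with most CpGs is added to show an AA10 window of a basement membrane collagen. A window of *Lama1*, the alpha chain of the early embryonic laminin, is added to show a Wt25 window of a laminin intron. It is 68.7% repeat sequence, more than the other *Lama1* windows. A pair of *Itgb5* windows is added because they lie close together and stand in opposite lists. These additions were chosen after their values were seen.
Col4a2 AA10 window, chr8:11423003-11423200: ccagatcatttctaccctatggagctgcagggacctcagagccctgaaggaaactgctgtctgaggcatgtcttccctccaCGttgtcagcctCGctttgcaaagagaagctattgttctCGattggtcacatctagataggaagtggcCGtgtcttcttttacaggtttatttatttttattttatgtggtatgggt
Lama1 Wt25 window, chr17:67754003-67754200: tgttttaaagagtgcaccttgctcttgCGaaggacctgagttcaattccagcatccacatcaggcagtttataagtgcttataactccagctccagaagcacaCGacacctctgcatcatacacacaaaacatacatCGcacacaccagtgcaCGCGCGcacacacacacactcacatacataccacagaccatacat
Itgb5 Wt25 window, chr16:33841003-33841200: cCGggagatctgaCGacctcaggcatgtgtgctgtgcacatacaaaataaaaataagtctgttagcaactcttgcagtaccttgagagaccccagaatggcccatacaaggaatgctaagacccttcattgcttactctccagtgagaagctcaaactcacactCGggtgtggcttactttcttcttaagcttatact
Itgb5 AA10 window, chr16:33842003-33842200: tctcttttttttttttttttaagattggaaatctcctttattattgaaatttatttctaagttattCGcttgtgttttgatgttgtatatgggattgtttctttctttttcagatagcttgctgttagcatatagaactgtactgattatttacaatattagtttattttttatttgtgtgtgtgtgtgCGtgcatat
The *Itgb5* pair lies in intron 1 of that gene, with starts 1 kb apart. The Wt25 window of the pair holds 3 CpGs, and the AA10 window holds 2 and is 51.0% repeat sequence.

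Windows of matrix and adhesion genes were split between the lists, with a lower share on the Wt25 side than at other genes. Of the 136 windows, 62 had higher 5hmC in Wt25 cells and 74 in AA10 cells. Wt25 windows thus made up 45.6% (95% Wilson interval 37.5% to 54.0%), against 58.9% (58.1% to 59.6%) of the 17803 windows at all other protein-coding gene bodies. Of the 81 windows inside the genes, 31 were Wt25 and 50 were AA10 windows, a Wt25 share of 38.3% (28.4% to 49.2%) against 61.2% at other genes. The other 55 windows lay outside the gene whose ID they carried, and 31 of these were Wt25 windows. Counted by gene, 22 genes had Wt25 windows only (39.3% of the genes with a window, against 51.2% at other genes), 26 had AA10 windows only (46.4% against 34.6%) and 8 had both (14.3% against 14.2%).

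**Figure D1:**
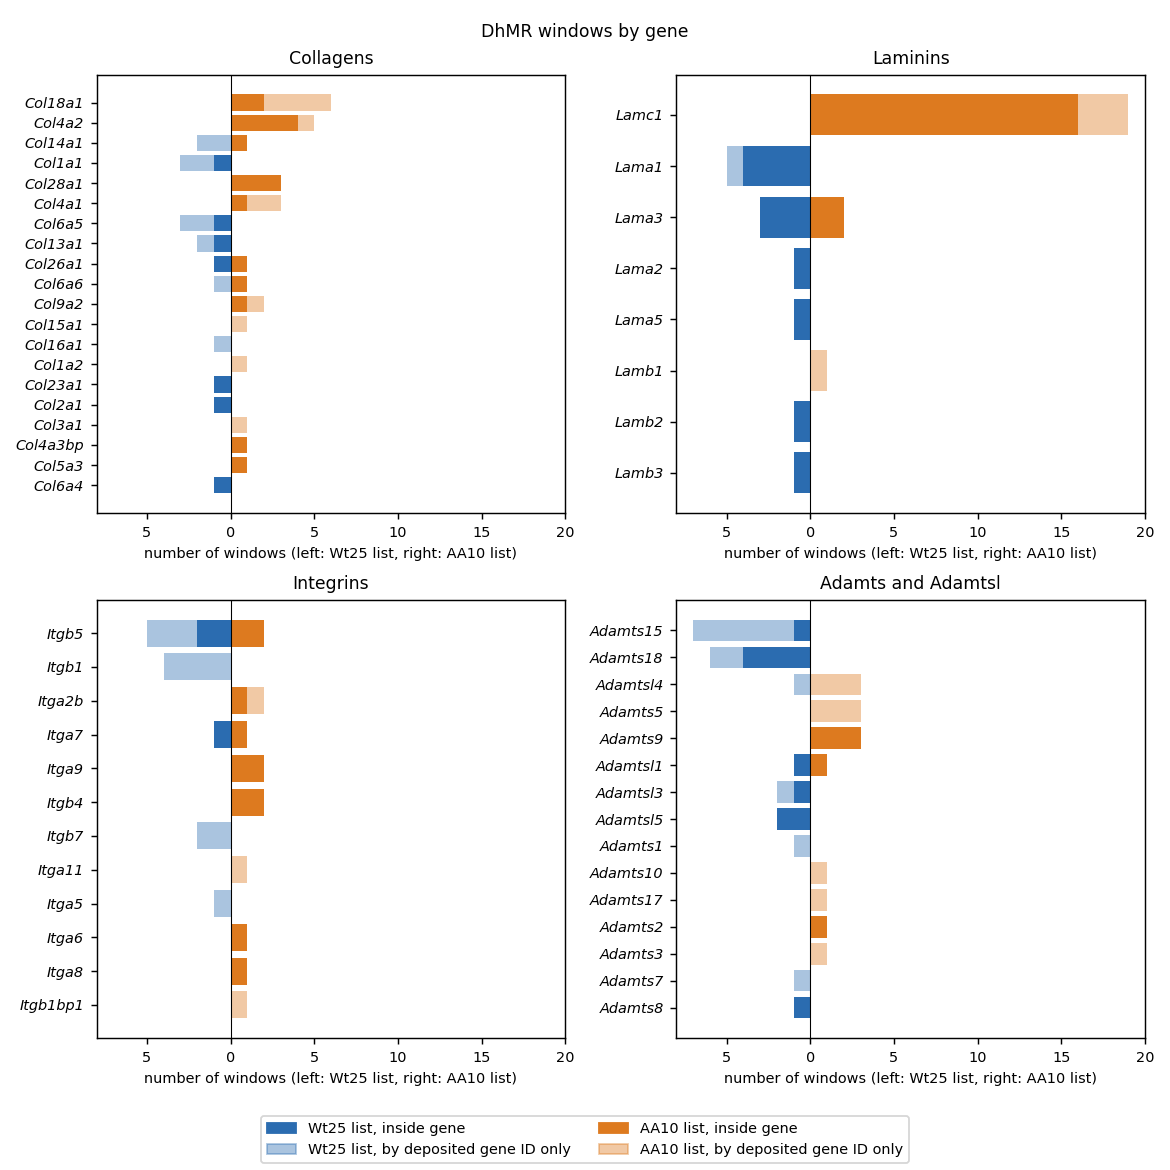
Number of DhMR windows at 55 of the 56 genes that had any, by family. Bars to the left count Wt25 windows and bars to the right AA10 windows, with dark parts for windows inside the gene and light parts for windows tied to it only by the deposited gene ID. *Lamc1* has the longest bar, 19 windows on the AA10 side, and 26 of the 56 genes had 1 window.

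The families differed in their shares. Laminins had 12 Wt25 and 23 AA10 windows, a Wt25 share of 34.3% (20.8% to 50.9%). Collagens had 15 and 24 (38.5%, 24.9% to 54.1%), and integrins had 13 and 13 (50.0%, 32.1% to 67.9%). Adamts genes had 22 and 14, a Wt25 share of 61.1% (44.9% to 75.2%). The intervals of the laminins and collagens lie below the 58.9% of other gene bodies, and those of the integrins and Adamts genes hold it. The intervals of all 4 families overlap each other. Without *Col18a1*, the collagens had 15 Wt25 and 18 AA10 windows, a Wt25 share of 45.5% for which no interval was computed. Inside the genes alone the integrin share was 23.1%, from 3 Wt25 and 10 AA10 windows. The laminin share rests on *Lamc1*: without this gene and its windows, 12 of 16 laminin windows (75.0%) were Wt25 windows, and the share over all families was 53.0%, with an interval that holds the 58.9% of other gene bodies.

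**Figure D2:**
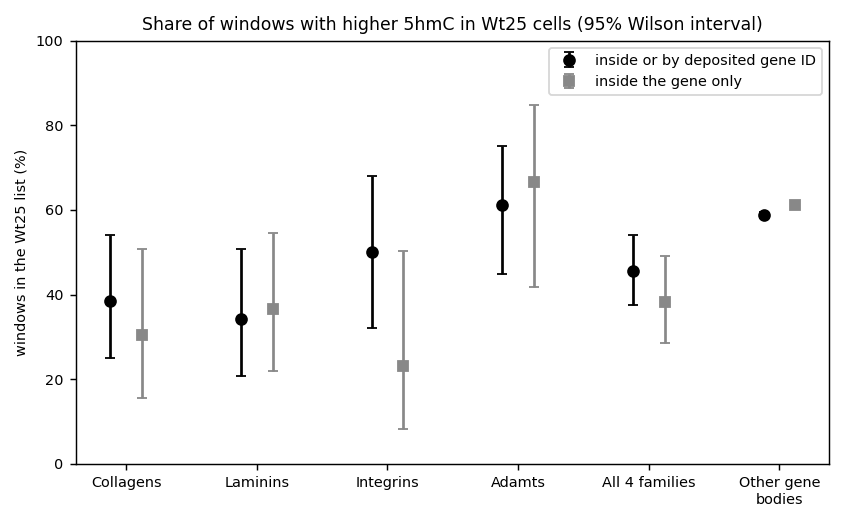
Share of windows that stand in the Wt25 list (vertical axis, percent) for each family, for the 4 families together and for all other gene bodies, with 95% Wilson intervals. Circles count windows inside a gene or tied to it by the deposited ID, and squares count windows inside the gene alone. The share over all families is 45.6% (circle) and 38.3% (square), against 58.9% and 61.2% at other gene bodies.

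**Figure D3:**
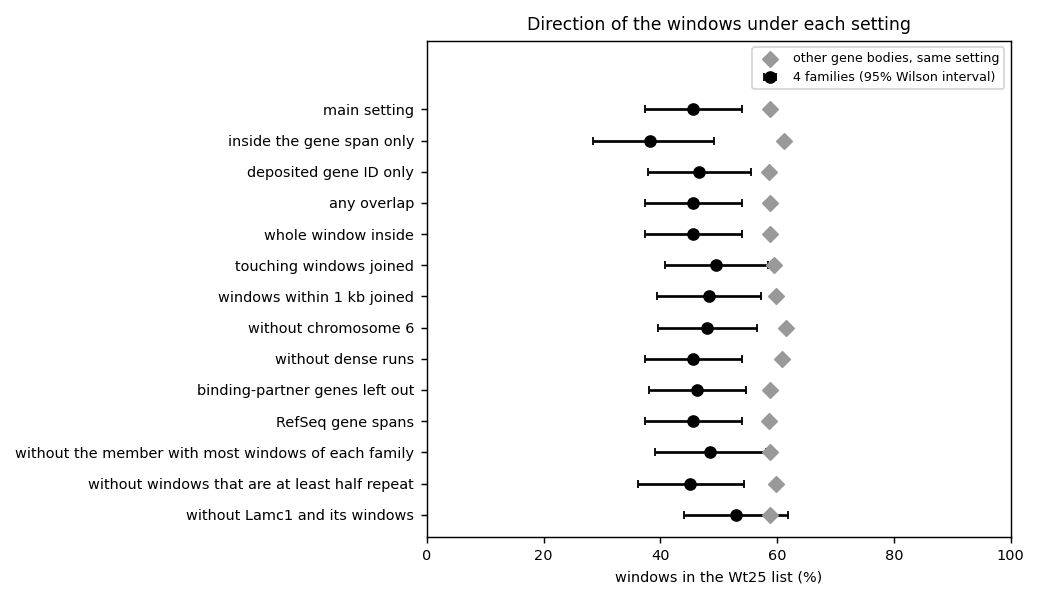
Share of the families' windows in the Wt25 list (horizontal axis, percent; circles with 95% Wilson intervals) under the main setting and each alternative, with the share at other gene bodies under the same setting as diamonds. The circle lies left of the diamond in every setting shown, from 38.3% with windows inside the gene alone to 53.0% without *Lamc1* and its windows, the setting whose interval reaches past the diamond.

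More of these genes had a window than genes in general, and they are also longer. At least 1 window was found at 56 of the 101 genes (55.4%), against a background of 34.9% over all autosomal protein-coding genes. A Wt25 window was found at 30 genes (29.7%, background 22.8%) and an AA10 window at 34 (33.7%, background 17.1%). Inside the gene span, 21 genes had a Wt25 window (20.8%, background 13.9%) and 23 had an AA10 window (22.8%, background 10.4%). The median length was 99.0 kb, against 17.5 kb for other genes. Among genes of at least 50 kb, 53.2% of the 62 matrix and adhesion genes had a window, against 57.6% of other genes. In this class a Wt25 window was found at 16 of 62 members, against 39.6% of other genes, and an AA10 window at 23 of 62, against 30.6%. Of the 12 members under 20 kb, 66.7% had a window, against 23.1% of other genes of that length.

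**Figure D4:**
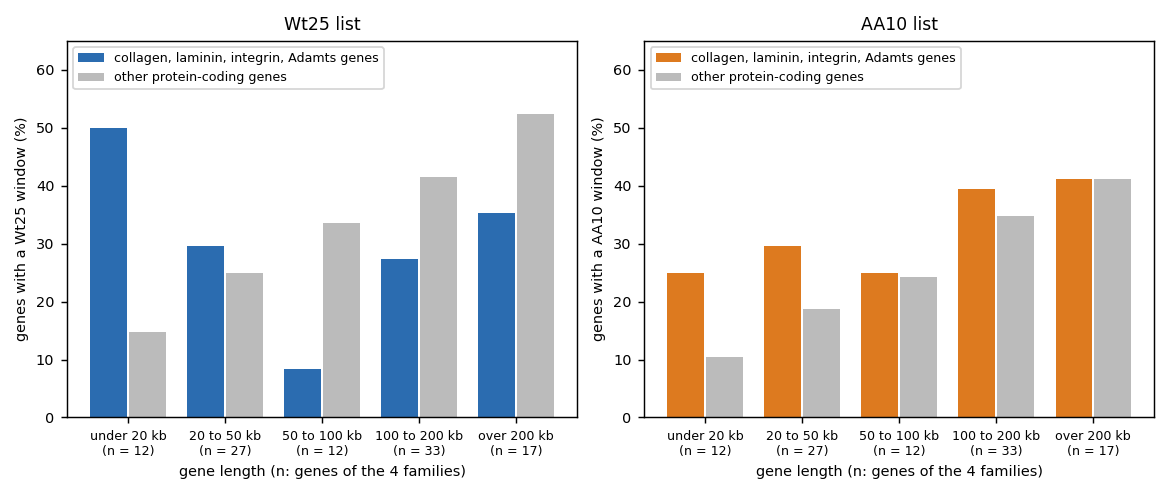
Share of genes with at least 1 Wt25 window (left) or AA10 window (right) by gene length, for the 4 families (coloured bars) and for other protein-coding genes (grey bars). From 50 kb upwards the coloured Wt25 bars stand below the grey ones. The AA10 bars of both kinds are at like heights for genes over 200 kb, where 7 of 17 members had an AA10 window against 41.1% of other genes.

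Per kb, the 4 families together held fewer Wt25 windows than other genes and, with *Lamc1* counted, a like number of AA10 windows. Over 12105 kb of gene span there were 0.256 Wt25 and 0.413 AA10 windows inside per 100 kb, against 0.657 and 0.416 over the other genes. Collagens had 0.142 Wt25 and 0.324 AA10 windows per 100 kb, and integrins had 0.158 and 0.526. Laminins had 0.664 and 1.15, the highest density of both lists among the 4 families, with a Wt25 density like that of other genes. Adamts genes had 0.277 and 0.139. Without *Lamc1* and its windows the AA10 density of the laminins was 0.195 and that of all families 0.284. Without *Itgb5* the Wt25 density of the integrins was 0.0562, and without chromosome 6 the AA10 density of the Adamts genes was 0.0582. In genes of at least 50 kb the members had 0.199 Wt25 windows per 100 kb against 0.568 at other genes, and 0.399 AA10 windows against 0.316. *Lamc1* held 16 of the 44 AA10 windows inside these long members, and no density without it was computed for this class.

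Among the laminins, *Lamc1* had AA10 windows only and the alpha chains mostly Wt25 windows (10 of 12). This gene encodes the gamma chain shared by most laminins. It spans 113.9 kb of the reverse strand at chr1:153218922-153332786 and had 19 AA10 windows and no Wt25 window. Inside the gene lay 16 of them, a density of 14.1 per 100 kb. Of all 20807 genes, 17 including *Lamc1* held at least as many AA10 windows inside, and of the 4787 genes of at least 50 kb, 32 were at least as dense in windows of both lists.

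The *Lamc1* windows ran along the gene in steps. From 21.3 kb to 72.5 kb behind the gene start, 10 windows lay in introns 1 and 2, with runs of 3 touching windows near 45 kb and of 2 near 72 kb. A single window followed in intron 16, at 91.7 kb. At 105 kb, 5 touching windows covered chr1:153227003-153228000 over introns 24 and 25 and coding exon 25, the stretch that holds the printed *Lamc1* window, and these 998 bp hold 26 CpGs. The remaining 3 windows lay 13.3 kb, 13.5 kb and 34.1 kb upstream of the gene. The deposited IDs follow the nearest gene start rather than the gene body: the 6 windows from intron 16 to intron 25 do not carry the ID of *Lamc1*. From its first to its last window, 140.0 kb of chromosome 1 held 19 AA10 windows and 0 Wt25 windows.

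*Lama1*, whose alpha chain is joined to the *Lamc1* chain in the laminin of early embryos, had the opposite direction, with 5 Wt25 windows and no AA10 window. On chr17:67697259-67822647 they lay in introns 3 (twin windows at 33.4 kb and 34.6 kb), 15 (56.8 kb, the printed one) and 23 (72.6 kb), and the fifth lay 29.8 kb upstream. They held 3 to 6 CpGs each. *Lama3*, the alpha chain of epidermal laminin, had windows of both lists along its 249.2 kb on chromosome 18: Wt25 windows in introns 12, 38 and 42, and a touching pair of AA10 windows in intron 39 that began 1.6 kb behind the Wt25 window of intron 38. *Lama2*, the chain of muscle laminin, had 1 Wt25 window in intron 1 over 639.7 kb, and *Lama5*, a broadly made chain, had 1 in intron 2. Of the beta chains, *Lamb2*, known from kidney and synapse, had the Wt25 window in coding exon 16 printed above, and *Lamb1* had 1 AA10 window 39.1 kb upstream. *Lamb3*, the epidermal chain, had 1 Wt25 window in intron 1, which also lies inside *Hsd11b1* and does not carry the ID of *Lamb3*. *Lama4* (144.7 kb) and *Lamc3* (59.2 kb) were the laminins with no window.

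**Figure D5:**
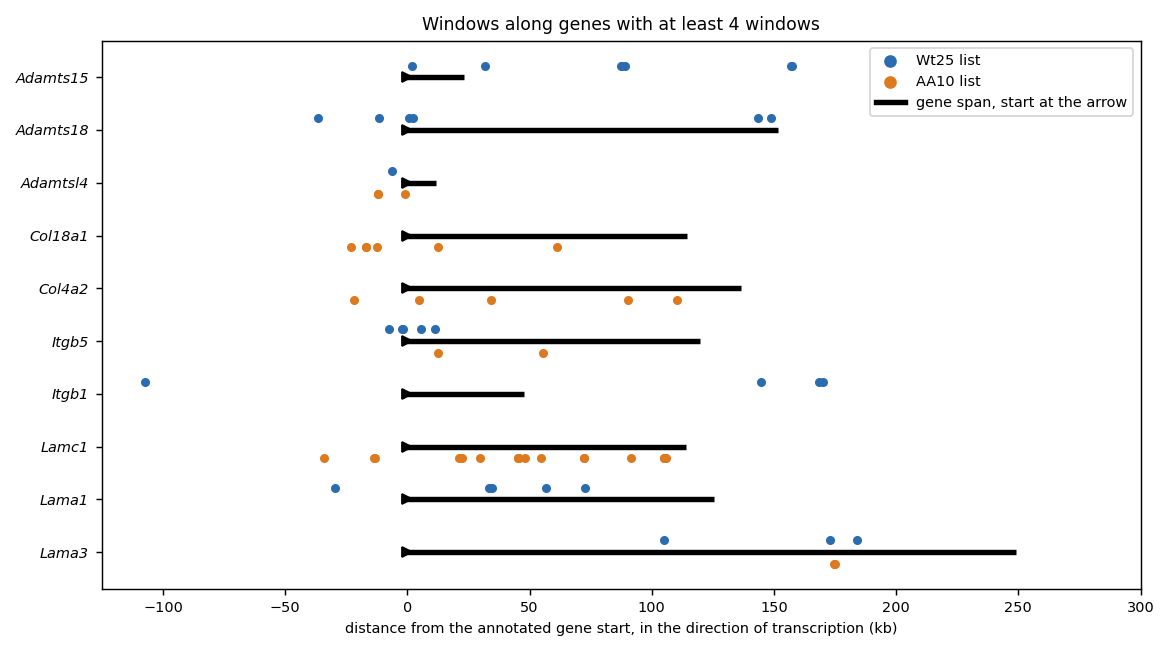
Windows along 10 genes with at least 4 windows, with the distance from the annotated gene start in the direction of transcription on the horizontal axis (kb). Black bars are gene spans, blue points above them Wt25 windows and orange points below them AA10 windows. *Lamc1* shows orange points along most of its span, *Lama1* blue points in its first 72.6 kb and upstream, and the windows of *Itgb1* and most of those of *Adamts15* lie beyond the gene.

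Among the collagens, those of the basement membrane had AA10 windows only. The alpha chains of collagen IV that occur in all basement membranes are encoded by *Col4a1* and *Col4a2*, which lie head to head on chromosome 8 and start within the same stretch of DNA. Their windows are shared in part: *Col4a2* (chr8:11312805-11449287) had 5 AA10 windows, of which 2 in intron 3, 1 in intron 8 and 1 in intron 22 lay inside it and the fifth lay in intron 1 of *Col4a1*. *Col4a1* had 3, of which that in intron 1 was its own and the others were those in intron 3 of *Col4a2*. The pair thus had 5 AA10 windows and 0 Wt25 windows. *Col4a3* and *Col4a4*, the chains of kidney and lung basement membranes, had none. The multiplexins, collagens that carry heparan or chondroitin sulfate at basement membranes, had 7 AA10 windows. *Col18a1*, the precursor of endostatin, had 6 of them, with 2 inside (12.6 kb and 61.0 kb behind the gene start) and 4 from 12.3 kb to 23.1 kb upstream, and *Col15a1* had 1 that lay 38.9 kb upstream.

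The fibrillar collagens, the rope-like ones of skin, bone and cartilage, had 4 Wt25 and 3 AA10 windows at 5 of 11 genes. *Col1a1*, the main collagen of bone, had 3 Wt25 windows, of which 1 lay in the 3' UTR and 2 lay 3.12 kb and 19.1 kb upstream. *Col2a1*, the collagen of cartilage, had the printed Wt25 window with 8 CpGs in intron 1, 0.594 kb behind the gene start. *Col5a3*, a chain of collagen V, had 1 AA10 window over 45 bases of coding exon 35 of 67. *Col1a2* and *Col3a1* had 1 AA10 window each, 82.9 kb and 223.8 kb upstream. The fibril-associated collagens, which coat such fibrils, had 3 windows of each list at 3 of 9 genes. *Col14a1* had 2 Wt25 windows upstream and 1 AA10 window in coding exon 25 of 48, *Col9a2*, of cartilage, had AA10 windows at its promoter (0.884 kb upstream) and in intron 4, and *Col16a1* had 1 Wt25 window upstream.

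The membrane-spanning collagens had 3 Wt25 windows and 0 AA10 windows, 2 at *Col13a1*, which is known from the neuromuscular junction, and 1 in intron 5 of *Col23a1*. Among the other collagens, the late-described chains of collagen VI lie in a row on chromosome 9. *Col6a4* had 1 Wt25 window, *Col6a5* had 3 (1 inside, 2 upstream) and *Col6a6* had 1 AA10 window inside and, by its ID, the Wt25 window that lies inside *Col6a5*. *Col28a1* had 3 AA10 windows in introns 11 and 12, *Col26a1* had 1 Wt25 window in intron 1 and 1 AA10 window in intron 3, and *Col4a3bp* had the printed AA10 window in intron 6. The 23 collagen genes without a window include some of the longest: *Col25a1* (468.4 kb), a membrane-spanning collagen of neurons, *Col19a1* (325.6 kb) and *Col24a1* (259.5 kb).

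Integrin alpha subunits had 2 Wt25 and 8 AA10 windows, and beta subunits had 11 and 4. Inside the genes the alpha subunits had 1 Wt25 and 6 AA10 windows and the beta subunits 2 and 4. Most Wt25 windows of the beta subunits were thus tied to them only by the deposited ID. Among the alpha subunits, the laminin receptors *Itga6* and *Itga7* had, in turn, 1 AA10 window in intron 2, and 1 AA10 window in intron 15 with 1 Wt25 window in intron 24. *Itga2b*, the platelet subunit, had 2 AA10 windows, in intron 5 (8 CpGs) and 36.6 kb upstream within *Gpatch8*. *Itga9*, a tenascin receptor subunit, had 2 AA10 windows in introns 5 and 15. *Itga11*, of a collagen receptor, had an AA10 window at its promoter, 0.925 kb upstream with 1 CpG, and *Itga8* had 1 in intron 13. *Itga5*, of the fibronectin receptor, had 1 Wt25 window 8.94 kb upstream.

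Of the beta subunits, *Itgb5*, of a vitronectin receptor, had 5 Wt25 and 2 AA10 windows (chr16:33829665-33949338). The Wt25 windows lay around the gene start, 3 from 7.36 kb to 1.96 kb upstream and 2 in intron 1 at 5.44 kb and 11.4 kb. The AA10 windows lay further in, at 12.4 kb in intron 1 and at 55.4 kb over 119 bases of coding exon 5 of 15, with 9 CpGs. *Itgb1*, the beta subunit of most laminin and collagen receptors, had 4 Wt25 windows, and none was inside the gene: 1 lay 107.2 kb upstream and 3 lay 97.1 kb to 122.7 kb downstream, within *Ccdc7a*. *Itgb4*, which anchors hemidesmosomes to laminin, had a touching pair of AA10 windows with 18 CpGs in 398 bp. Their midpoints lay in introns 16 and 17, so the pair spans exon 17. *Itgb7*, of lymphocyte homing receptors, had 2 Wt25 windows 2.96 kb and 4.16 kb upstream, the latter within *Rarg*. *Itgb1bp1* meets the naming rule but encodes a protein that binds the *Itgb1* tail inside the cell. It had 1 AA10 window 6.72 kb downstream, within *Asap2*. Without a window were 11 genes, the longest being *Itgb3bp* (164.4 kb, not an integrin), *Itga1* (148.9 kb) and *Itgb6* (124.4 kb).

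Adamts genes were the family with more Wt25 than AA10 windows, the direction that other gene bodies also had (58.9% Wt25). Without *Adamts15*, the Adamts genes had 15 Wt25 and 14 AA10 windows (51.7% Wt25). The proteoglycan-cleaving proteases had 9 and 6. *Adamts15* (chr9:30899155-30922452) had 7 Wt25 windows, of which 1 lay in intron 1, 1.75 kb behind the gene start, and 6 lay 8.45 kb to 133.9 kb downstream. *Adamts8*, its neighbour on the chromosome, had 1 Wt25 window in coding exon 5 of 9, and *Adamts1* had 1 Wt25 window 87.3 kb downstream. *Adamts5*, the main aggrecan-cleaving enzyme of cartilage, had 3 AA10 windows, none inside and the nearest 160.5 kb upstream, and *Adamts9*, which cuts versican, had 3 AA10 windows inside, in introns 21 and 31 and in coding exon 38 (printed above). The procollagen N-proteinases, which trim fibrillar collagens, had AA10 windows only, 1 each at *Adamts2* (intron 2) and *Adamts3* (23.8 kb upstream).

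Among the other proteases, *Adamts18* (chr8:113697126-113848738) had 6 Wt25 windows and no AA10 window. A first pair of these lay upstream, at 11.6 kb and 36.4 kb, another in intron 2 at 0.637 kb and 2.44 kb, and the last near the gene's end, in coding exon 21 of 23 (183 bases, 6 CpGs) and intron 22. *Adamts7* had 1 Wt25 window, and *Adamts10* and *Adamts17* 1 AA10 window each, all outside the gene. Those of *Adamts7* and *Adamts17* lay, in turn, inside *Tbc1d2b* and *Cers3*. Of the Adamtsl genes, *Adamtsl4*, a protein of the fibres that hold the lens, had 1 Wt25 window and 3 AA10 windows upstream, of which 1 AA10 window was at the promoter (0.784 kb upstream). *Adamtsl5* had a touching pair of Wt25 windows over coding exons 5 and 6, with 11 CpGs in 398 bp. *Adamtsl3* had 2 Wt25 windows and *Adamtsl1* had 1 of each list. The Wt25 window of *Adamtsl1* also lies inside *Sh3gl2*, and the upstream one of *Adamtsl3* inside *Sh3gl3*. *Adamts12* (284.4 kb), *Adamts19* (217.4 kb) and *Adamts6* (208.9 kb) were the longest of the 9 genes without a window.

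Within the genes, introns held most windows, each window being placed by its midpoint. The *Itgb4* pair is thus counted under introns, though it spans an exon. Intronic windows were 51.5% of the families' 136 windows (25 Wt25, 45 AA10) and 51.6% of the windows at other gene bodies. Coding exons held 10 windows (7.35%, against 3.49%), 5 of each list. The promoter, from 1000 bases before to 100 bases behind a transcript start, held 3 windows, all AA10 (*Col9a2*, *Itga11*, *Adamtsl4*), against 272 Wt25 and 261 AA10 windows at promoters of other genes. Windows downstream of the gene were 11 Wt25 and 1 AA10, against 1224 Wt25 and 1204 AA10 at other gene bodies. Of the 11, 6 were those of *Adamts15* and 3 those of *Itgb1*. Cut into 5 equal lengths from start to end, the genes held 11, 7, 5, 2 and 6 Wt25 windows and 10, 9, 13, 9 and 9 AA10 windows. At other gene bodies, counted per gene, these were 1523, 1361, 1367, 1259 and 1319 Wt25 windows. The AA10 windows there were 1061, 870, 812, 685 and 789. Without *Lamc1* the AA10 counts of the families were 8, 6, 10, 7 and 3.

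The sequence of the windows was like that elsewhere. Wt25 windows of the families held 3.39 ± 1.92 CpGs (SD over 62 windows) and AA10 windows 3.23 ± 2.21 (74 windows), against 3.26 ± 2.54 and 3.20 ± 2.36 at other gene bodies. GC content was 49.7% ± 6.55 and 46.2% ± 7.15, against 47.5% ± 6.85 and 45.9% ± 6.92. The letters CCGG, which read the same on both strands and include a CpG, were found in 27.2% of the families' windows and in 21.7% of windows of the same length at other genes. By family the share with CCGG ran from 12.8% of 39 collagen windows to 46.2% of 26 integrin windows. Repeats filled at least 50% of the window in 18.4% of the windows, against 25.6%.

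Windows of a gene mostly stood in the same list. Of 90 pairs of neighbouring windows in the 30 genes with more than 1, 80 (88.9%) were of the same list, as were 88.9% of pairs at other genes. The 13 runs of touching windows took up 30 of the 136 windows, and 10 of these runs were of the AA10 list. *Lamc1* had more of the runs than any other gene, all AA10, and no such count by list is given for other genes. Stretches where at least 20 windows of one list follow each other with gaps of at most 10 kb held 14.0% of the windows at other genes and 0 of the 136. The *Lamc1* locus was no such stretch, since 6 of the gaps between its windows were over 10 kb.

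The chromosomes differed in direction, and part of the families' windows lay where AA10 windows prevailed at all genes. On chromosome 1 the families had 1 Wt25 and 21 AA10 windows, and 42.6% of windows at other gene bodies there were Wt25 windows. On chromosome 6 the 7 windows of *Col28a1*, *Adamts9* and *Col1a2* were all AA10 windows, and other gene bodies there had 110 Wt25 and 845 AA10 windows (11.5% Wt25). With other gene bodies weighted by the chromosomes of the families' windows, their Wt25 share was 56.8% (families 45.6%). The weighted share was 56.3% for the collagens' chromosomes (collagens 38.5%), 48.4% for the laminins' (34.3%), 64.6% for the integrins' (50.0%) and 59.9% for those of the Adamts genes (61.1%). The part that the chromosome has in these counts was not tested.

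Related genes outside the naming rule gave 37 Wt25 and 31 AA10 windows (54.4% Wt25, against 58.9% at the other gene bodies) at 33 of 75 genes (44.0%, against 34.9% of all genes). Other matrix proteins had 18 Wt25 and 3 AA10 windows (85.7% Wt25) at 8 of 29 genes (27.6%), and 10 of these windows were at *Nid2*. *Nid2* encodes a nidogen, the linker of laminin and collagen IV networks, and had 9 Wt25 windows and 1 AA10 window, all inside the gene, with 3 Wt25 windows in coding exons 5, 9 and 14. *Nid1*, the other nidogen, had 2 Wt25 windows, in coding exon 6 and intron 8. Thus *Lama1* and both nidogens had mostly Wt25 windows and *Lamc1*, *Col4a1* and *Col4a2* had AA10 windows only, although the proteins meet in the same basement membranes. This set was put together after the values were seen and leaves out other laminin and basement membrane genes. Among these are *Lama5* and *Lamb2* (Wt25 windows only) and *Lamb1*, *Col18a1* and *Col15a1* (AA10 windows only). Apart from the *Col4a1* and *Col4a2* pair, the genes of the set lie on different chromosomes, and the part of the chromosome was not tested. No window was found at *Fn1*, which encodes fibronectin, or *Hspg2*, which encodes perlecan. Collagen-modifying enzymes had 2 Wt25 and 8 AA10 windows (20.0% Wt25) at 6 of 13 genes (46.2%), with 3 AA10 windows each inside *Plod1*, a lysyl hydroxylase, and *Loxl3*, a lysyl oxidase on chromosome 6. Collagen receptors and integrin-linked proteins had 11 and 6 (64.7% Wt25) at 9 of 13 genes (69.2%), with 3 Wt25 windows at *Ptk2*, the focal adhesion kinase. Other matrix proteases and inhibitors had 6 and 12 (33.3% Wt25) at 9 of 14 genes (64.3%), with 4 AA10 windows at *Mmp2*, a gelatinase that cuts collagen IV. Of the integrin alpha genes with a letter in place of a number, *Itgav* had 2 AA10 windows and the other 5 had none.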

How the data were processed

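For the windows, the authors mapped 5hmC-DIP reads with STAR, unique hits only, to the Ensembl release 87 genome of GRCm38 and took out duplicates with Picard. MEDIPS then tested 200 bp bins between the lines, at the authors' own P threshold and a fold change of 1 or more. Bins over IgG-DIP peaks, tandem repeats or low complexity sequence were dropped, and HOMER gave the gene IDs. Tool versions are not given in the sources used here. The deposited lists pool the replicates and hold positions and, for 19953 windows, an Ensembl ID, so the depth behind a window is unknown.

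A window was given to a gene when its midpoint lay inside the GENCODE vM21 span (1-based) or when it carried the gene's ID. Of the 81 windows inside a gene of the families, 53 carried that gene's ID, 26 another gene's and 2 none. Sequence came from the RefSeq genome (GRCm38.p6), and exon numbers from the longest coding transcript. Wilson intervals were computed with scipy 1.17.1. The functions were checked on simulated windows.

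The families, lists and rules were chosen with earlier results of these data known. Genes were named when they had at least 4 windows, the 3 highest counts per family and list, both lists, or a promoter or coding exon window, or were among the 3 longest of a family without a window. Further members are named to account for the genes with a window, except that the values of 1 gene are counted in the totals but not reported here, and related genes were named after their values were seen.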

Additional observations from a re-analysis of the deposited data

How the results depend on the processing

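Over 14 alternatives, of which leaving out *Lamc1* and its windows was chosen after seeing the data, 123 of 133 recomputed values stayed within the 95% counting interval of the main value. That interval is wide where few windows were counted: the AA10 density of the Adamts genes was 0.0582 per 100 kb without chromosome 6, and the Wt25 density of the integrins was 0.0562 without *Itgb5*. The tally of 123 also includes values that did not or could not move. The families' values equalled the main ones with any overlap, with the whole window inside and without stretches of at least 20 windows. Leaving out *Lamc1* could not change the values of the collagens, integrins and Adamts genes. The Wt25 share over all families, recomputed under 13 of the alternatives, ran from 38.3% to 53.0% and was below that of other gene bodies each time. With windows inside the gene span only, the integrin share was 23.1%, and 20.8% of the members had a Wt25 window and 22.8% an AA10 window, against 13.8% and 10.4% of other genes. With windows within 1 kb joined, the laminins had 0.664 AA10 windows inside per 100 kb. Without *Col18a1*, *Lamc1*, *Itgb5* and *Adamts15*, the member with most windows of each family, the laminin share was 54.5%, and the AA10 density was 0.195 per 100 kb for the laminins and 0.256 for all families. Without *Lamc1* and its windows, the laminin share was 75.0%, and the AA10 density was 0.195 for the laminins and 0.284 for all families.

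No paired analysis was possible because the lists pool the replicates and hold no value per library. Leaving out a replicate and setting a stricter threshold were not run for the same reason. Depth and the size of each difference are unknown, so a gene without a window cannot be read as a gene without a difference. Each line is 1 clone, and a window outside a gene is tied to it only by the deposited ID. Some of those windows lie inside another gene.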
